A study of Mus musculus with 16 samples.

Results

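Nodal signalling genes were followed in mouse RSCs in which the kinase ERK was switched on with tamoxifen. The set held 9 genes out of 52636 counted: the antagonists Lefty1 and Lefty2, the ligand Nodal, its coreceptor Tdgf1, the receptors Acvr1b and Acvr2b, the cofactor Foxh1, and the inhibitors Smad7 and Skil. They were chosen by pathway role together with measured values of these libraries, namely the opposite responses of Lefty1 and Lefty2 in the 2 clones. Differences between the clones in the response of these 9 genes are therefore described with their standard errors and without a test. All 9 had enough counts to be tested, among 12742 genes that passed the filter on low counts.

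Nodal is a secreted ligand of the TGF-beta family that binds type I and type II activin receptors, with the protein Cripto, the product of Tdgf1, as coreceptor. The receptors phosphorylate SMAD2 and SMAD3, which act in the nucleus with SMAD4 and with DNA-binding partners such as FOXH1. Lefty1 and Lefty2 are targets of the pathway whose secreted products block Nodal and its coreceptor, a negative feedback known from the early embryo and from pluripotent cells.

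The cells were the line CRAFR26, labelled RSC and grown with the Wnt-secretion inhibitor IWP2, the MEK inhibitor PD03 and LIF, and they carried a c-RAF kinase construct that 4-hydroxytamoxifen (4OHT) induces. In all 4 groups PD03 had been exchanged for 250 nM of the FGF receptor inhibitor PD17 for 48 h. The group 0h had no 4OHT, 2h and 4h had 250 nM 4OHT for 2 h and 4 h, and rev had 4OHT for 4 h followed by a MEK inhibitor for 2 h, at a dose that the labels do not state. The comparison of rev with 4h therefore also holds 2 h of further culture. Each group had 2 libraries from clone 4 and 2 from clone 8, and each clone is 1 isolate of the line. The labels do not say whether the 2 libraries of a clone came from separate cultures, so p-values measure only the spread between these libraries, which may be technical.

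Library totals were 4.31 to 10.4 M counts. Between 47.1% and 79.7% of them lay in 9 features that each took over 1% of a library, which left 1.25 to 5.41 M for all other genes. The smallest library on that measure was rev clone 8 replicate 1. Its scaling factor (TMM) of 0.537 was also the lowest, so its scaled values depended most on that scaling. All 16 libraries were nearer to the clone on their label than to the other clone. Of the cell type markers, 7 pluripotency genes summed to 858 to 1646 CPM (counts scaled to each library's size) per library. The highest sum was 8.05 CPM for 6 endoderm genes, 79.1 CPM for 5 trophoblast genes, 4.32 CPM for 4 mesoderm genes and 3.6 CPM for 6 fibroblast genes, 4 of which had at most 3 counts in every library. On the third principal component, with 8.57% of the variance, all 0h and 4h libraries lay on one side of 0 and all 2h and rev libraries on the other.

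Lefty1 (chromosome 1, 180935022 to 180938400, plus strand) and Lefty2 (chromosome 1, 180893108 to 180899103, plus strand; coordinates here and below are GRCm38, GENCODE M21) moved in opposite directions in the 2 clones. In clone 4 both were high at 2h and rev and low at 0h and 4h. In clone 8 both were high at 0h and lower at 2h and rev. The lowest Lefty values of the series were those of clone 4 at 4h. These 2 libraries also had the lowest summed pluripotency markers (858 and 1069 CPM, 1125 to 1368 in the other clone 4 libraries). The markers did not move together from 0h to 4h in clone 4. Mean CPM was lower for Nanog (344 to 140), Dppa5a (208 to 147) and Esrrb (234 to 186). It was higher for Utf1 (26.7 to 87.4) and Pou5f1 (147 to 172), and near its 0h value for Sox2 (214 to 216) and Otx2 (14.6 to 15.6). In the same 2 libraries the mesoderm markers summed to 3.20 and 4.32 CPM (0.519 to 1.11 in the other clone 4 libraries). The fibroblast markers summed to 3.30 to 3.6 CPM (1.06 to 2.48). These sums rest on few counts, with means at 4h of 9.5 for T, 9 for Kdr, 2 for Mixl1 and 0 for Mesp1. Col1a1 and Thy1 averaged 10 and 9 counts, and Col1a2, Col3a1, Dcn and Lum at most 0.5. The part of these marker values in the Lefty values was not tested.

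Lefty1 in clone 4, replicates 1 and 2, stood at 15.6 and 9.55 CPM at 0h, 31.6 and 21.3 at 2h, 0.933 and 1.27 at 4h, and 32.9 and 28.9 at rev. Lefty1 in clone 8 stood at 23.1 and 25.9 CPM at 0h, 10.6 and 10.7 at 2h, 16 and 10.7 at 4h, and 7.87 and 9.21 at rev. Within clone 4, every 2h and rev library lay above every 0h and 4h library. Within clone 8, in TMM-scaled CPM, every 2h and rev library lay below every 0h and 4h library. There was almost no gap between replicate 2 of 2h and of 4h, both at 10.7. The 4h values of clone 4 rest on 7 and 5 counts, above the floor of 3 counts, which was worth 0.21 to 0.908 CPM depending on the library. The floor stands for counting error alone, as the labels name no molecular identifiers that would mark independent molecules.

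The log2 change of Lefty1 from 0h to 2h was 1.11 ± 0.20 (SE) in clone 4 and -1.19 ± 0.17 in clone 8, a difference between clones of -2.31 ± 0.26. From 0h to 4h it was -3.53 ± 0.39 in clone 4 and -0.83 ± 0.18 in clone 8. From 4h to rev it was 4.85 ± 0.32 in clone 4, which is 28.9-fold, and -0.64 ± 0.23 in clone 8. Clone 8 minus clone 4, these changes differed by 2.69 ± 0.46 from 0h to 4h and by -5.50 ± 0.42 from 4h to rev. At 4h Lefty1 was lower than at 0h in both clones, but its level was 12.9-fold higher in clone 8 than in clone 4.

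Lefty2 in clone 4 stood at 13.2 and 9.70 CPM at 0h, 56.3 and 55.6 at 2h, 1.73 and 8.38 at 4h, and 69.6 and 51.3 at rev. Lefty2 in clone 8 stood at 75.6 and 90.5 CPM at 0h, 32.0 and 38.5 at 2h, 73.3 and 80.1 at 4h, and 26.6 and 29.6 at rev. The 2h and rev libraries again lay apart from the 0h and 4h libraries within each clone, above them in clone 4 and below them in clone 8. The 2 libraries of clone 4 at 4h differed more from each other, as a ratio, than any other pair for this gene.

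The log2 change of Lefty2 from 0h to 2h was 2.31 ± 0.21 in clone 4 and -1.23 ± 0.16 in clone 8, a difference of -3.54 ± 0.27. From 0h to 4h it was -1.45 ± 0.35 in clone 4 and -0.11 ± 0.15 in clone 8, a difference of 1.34 ± 0.38 that was 0.31 without clone 4 replicate 1 at 4h and 2.58 without replicate 2. From 4h to rev it was 3.87 ± 0.26 in clone 4, or 14.6-fold, and -1.43 ± 0.18 in clone 8, a difference of -5.29 ± 0.32. The level of Lefty2 in clone 8 was 7.35-fold that of clone 4 at 0h and 18.5-fold at 4h, whereas at rev clone 4 was 2.12-fold above clone 8. Values that involve clone 4 at 4h depended on its 2 libraries: the fold from 4h to rev was 7.18 without replicate 1 and 34.5 without replicate 2, and the fold of clone 8 over clone 4 at 4h was 9.12 and 43.8. The difference between clones from 4h to rev was then -4.27 and -6.53.

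**Figure D1:**
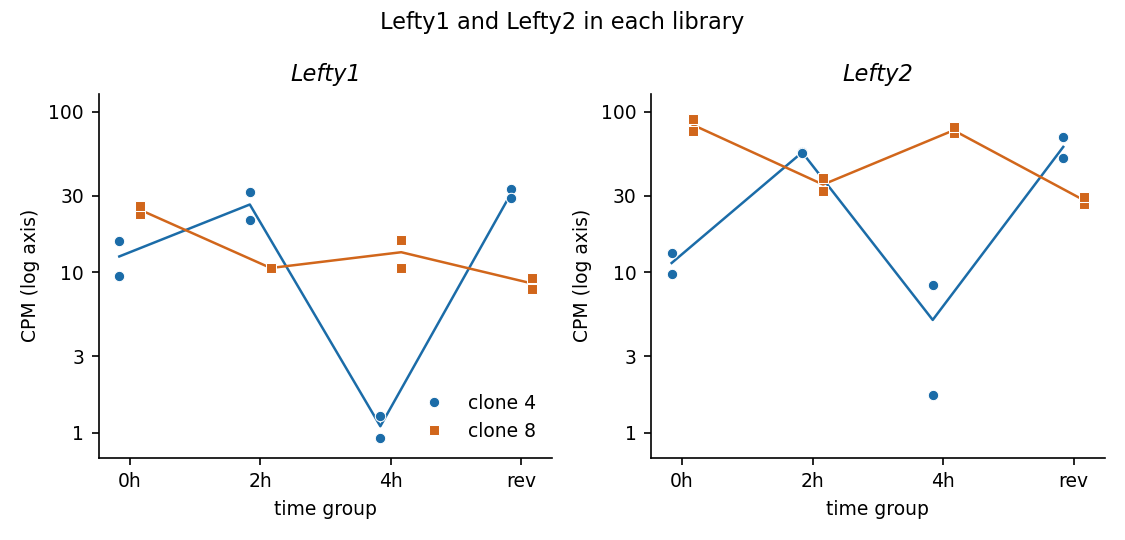
CPM (log axis) of Lefty1 and Lefty2 in each of the 16 libraries by time group; circles are clone 4, squares clone 8, and lines join the means of the 2 libraries. The clone 4 line is lowest at 4h, where Lefty1 stood at 0.933 and 1.27 CPM, while the clone 8 line is lower at 2h and rev than at 0h and 4h.

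Of all tested genes, 45 had every 2h and rev library above every 0h and 4h library in clone 4 and below them in clone 8, which is 0.353%. Lefty1 and Lefty2 were the members that did so, and since the members were chosen on this contrast nothing is read from that share. Both genes followed the split of the time groups that the third principal component showed, and the part of that component in their pattern was not tested. Lefty1 and Lefty2 share sequence: 17.9% of the 50-base stretches of Lefty1 transcripts and 12% of those of Lefty2 occur in the other gene, so reads could be split between them. The counts of both genes summed gave differences between clones of the same signs, -3.03 at 2h against 0h, 1.93 at 4h against 0h and -5.41 at rev against 4h.

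The steps of the 2 clones can also be read from 2h to 4h and from 0h to rev, with libraries shared between these comparisons. From 2h to 4h Lefty1 was 24.9-fold lower in clone 4, with a log2 change of -4.64 ± 0.33, and 0.36 ± 0.19 higher on the log2 scale in clone 8. Lefty2 was 13.5-fold lower in clone 4 (6.67-fold without replicate 1 at 4h, 32.0-fold without replicate 2) and 2.17-fold higher in clone 8. From 0h to rev Lefty1 was 2.51-fold higher in clone 4 and 2.78-fold lower in clone 8, and Lefty2 was 5.35-fold higher and 2.91-fold lower. At rev no library of either gene overlapped the 0h libraries of its clone.

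Opposite and non-overlapping responses in the direction clone 4 higher, clone 8 lower were found for Lefty1, Lefty2 and Skil at 2h against 0h (background over all tested genes 5.16%), for Skil at 4h against 0h (3.05%), for Lefty1, Lefty2 and Smad7 at rev against 4h (5.85%), and for Lefty1, Lefty2, Smad7 and Skil at rev against 0h (4.74%). Clone 4 was lower and clone 8 higher at 4h against 2h for Lefty1 and Lefty2 (6.29%). For Lefty1 in clone 8 there was almost no gap, with replicate 2 of 2h and of 4h both at 10.7 CPM. Overlap was judged on TMM-scaled values alone. These contrasts chose the members, and the counts are given as a description. Nodal, Tdgf1, Acvr1b, Acvr2b and Foxh1 had no opposite, non-overlapping response in these comparisons.

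**Figure D2:**
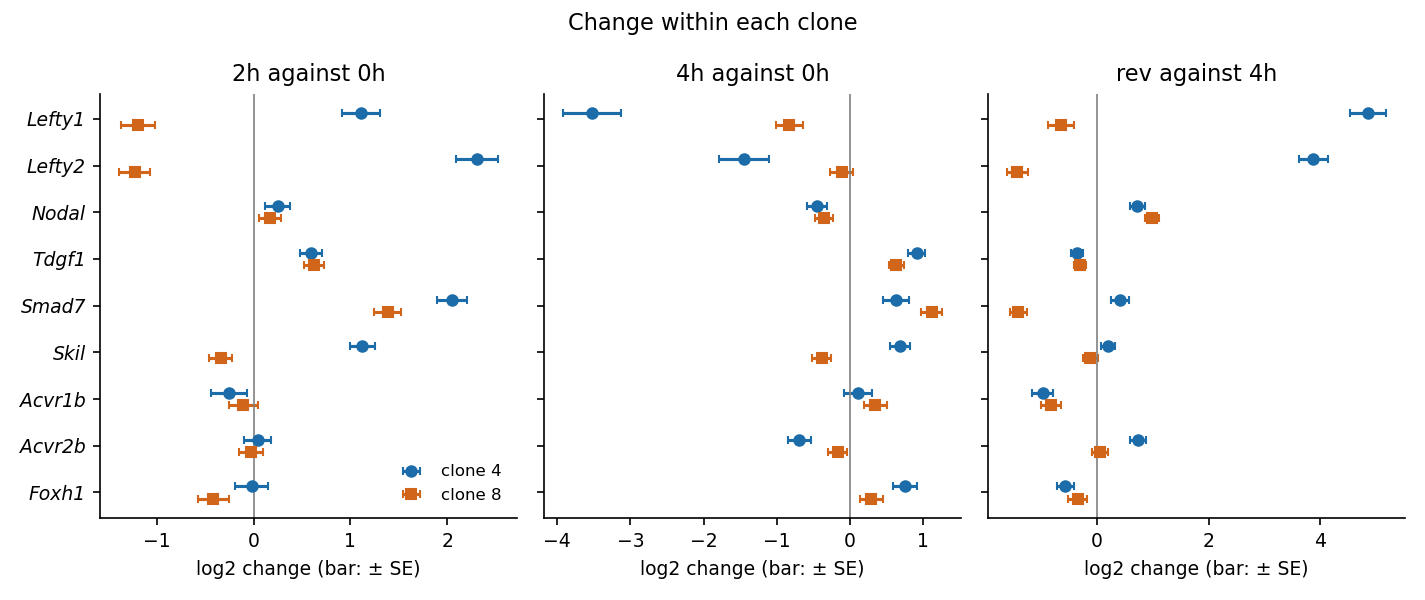
Log2 change of each member within clone 4 (circles) and clone 8 (squares) for 3 comparisons, with bars of ± 1 SE from the model of the 8 groups of time and clone. Lefty1 and Lefty2 lie on opposite sides of 0 at 2h against 0h and at rev against 4h, and the points of Nodal and Tdgf1 lie close together in all 3 panels.

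Averaged over the clones, with clone as a covariate, the groups of times were compared with edgeR's quasi-likelihood test and Benjamini-Hochberg adjustment over all tested genes. At 2h against 0h, 2 of 9 members rose and 0 fell, against 9.49% and 7.48% of all tested genes. At 4h against 0h, 3 rose and 2 fell, against 7.35% and 5.56%. At 4h against 2h, 2 rose and 3 fell, against 5.78% and 6.36%. At rev against 4h, 1 rose and 3 fell, against 4.5% and 5.1%. At rev against 0h, 2 rose and 1 fell, against 5.51% and 4.94%. At rev against 2h, 0 rose and 1 fell, against 0.769% and 1.01%.

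The median log2 change of the members was 0.21 from 0h to 2h, 0.07 from 0h to 4h, -0.41 from 2h to 4h and 0.06 from 4h to rev, where the medians of all genes lay between -0.01 and 0.01. These 6 comparisons share libraries with each other. Lefty1 and Lefty2 passed in none of the 6, with SEs of 0.51 to 0.69 in the fit averaged over the clones, which holds their opposite responses as spread. Lefty1 from 0h to 4h averaged -1.21 ± 0.58 (adjusted p = 0.176), and it was called without clone 8 replicate 1 at 4h (-2.11, adjusted p = 0.034). Without the filter on low counts (-1.20, SE 0.157, adjusted p = 3.2e-12) or with library totals for scaling (-1.22, SE 0.267, adjusted p = 0.000349) it was also called. The changes were near that of the main fit and the SEs smaller, although the clones changed by -3.53 and -0.83. Such SEs do not carry the difference between the clones, so nothing is read from calls gained in these 2 settings. The same 2 settings gave calls of Lefty1 from 2h to 4h and from 4h to rev, where it was also called without clone 8 replicate 1 at 4h (2.13 in place of 1.31, adjusted p = 0.0365). Without the filter Lefty2 was called from 2h to 4h (-0.51, SE 0.124, adjusted p = 0.00126) and from 4h to rev (0.59, SE 0.127, adjusted p = 0.000158). The SEs in the main fit were 0.68 and 0.69.

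The ligand Nodal (chromosome 10, 61417972 to 61425338, plus strand) was, in TMM-scaled CPM, high at rev and low at 4h in both clones. Nodal in clone 4 stood at 31.8 and 38.0 CPM at 0h, 43.8 and 39.7 at 2h, 23.5 and 29 at 4h, and 40.8 and 43.7 at rev. Its clone 8 libraries stood at 41.2 and 40.4 CPM at 0h, 43.2 and 48.4 at 2h, 34.7 and 28.2 at 4h, and 59.0 and 65.8 at rev. All 2h and rev libraries lay above all 0h and 4h libraries within each clone, as for 1.13% of tested genes, by a margin of under 2 CPM at the nearest libraries in clone 4. As shares of library totals this did not hold for rev replicate 1 of clone 8 (195 counts of 6.16 M). It lay below both 0h libraries of clone 8 (397 of 9.12 M and 281 of 7.03 M).

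Over both clones Nodal fell by 0.61 on the log2 scale from 2h to 4h (SE 0.108, adjusted p = 0.00164) and rose by 0.85 from 4h to rev (SE 0.109, adjusted p = 6.38e-05). It also rose by 0.45 from 0h to rev (SE 0.107, adjusted p = 0.0117), a call lost without clone 8 replicate 2 at rev (0.36, adjusted p = 0.0509). The fall from 0h to 4h was 0.40 (SE 0.111, adjusted p = 0.0217). That call was lost without clone 4 replicate 2 at 0h, clone 4 replicate 1 at 4h or clone 8 replicate 2 at 4h, with changes of -0.34, -0.35 and -0.34. The change from 0h to 2h was 0.21 (adjusted p = 0.185). In the separate clones the change from 4h to rev was 0.72 ± 0.13 in clone 4 and 0.99 ± 0.12 in clone 8, a difference of 0.27 ± 0.18. Nodal and the Lefty genes had the same order of times, high at 2h and rev, in clone 4 and not in clone 8.

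The coreceptor gene Tdgf1 (chromosome 9, 110939603 to 110946158, minus strand) rose in both clones on induction and, in TMM-scaled CPM, stayed above its 0h level at rev. Tdgf1 in clone 4 stood at 58.3 and 52.0 CPM at 0h, 86.7 and 79.6 at 2h, 96.1 and 111 at 4h, and 84.8 and 75.6 at rev. Clone 8 libraries stood at 86.3 and 95.7 CPM at 0h, 135 and 146 at 2h, 135 and 147 at 4h, and 116 and 113 at rev. In TMM-scaled CPM, no induced library overlapped the 0h libraries of its clone, and clone 8 lay above clone 4 at every time. As shares of library totals this did not hold for rev replicate 1 of clone 8 (382 counts of 6.16 M). It lay below both 0h libraries of clone 8 (832 of 9.12 M and 666 of 7.03 M). It also lay below both rev libraries of clone 4 (751 of 9.18 M and 779 of 9.99 M).

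Tdgf1 rose by 0.61 on the log2 scale at 2h (SE 0.0878, adjusted p = 0.000149) and by 0.76 at 4h against 0h (SE 0.0887, adjusted p = 1.37e-05). The changes in the separate clones were near each other, 0.60 ± 0.11 in clone 4 and 0.63 ± 0.10 in clone 8 at 2h. From 4h to rev Tdgf1 fell by 0.33 (adjusted p = 0.021), and at rev it was 0.43 above 0h (adjusted p = 0.00454). The fall at rev lost its call without clone 4 replicate 2 at 4h (-0.26), clone 4 replicate 2 at rev (-0.32) or clone 8 replicate 2 at rev (-0.31). Of the 50-base stretches of Tdgf1 transcripts, 8.86% also occur in the pseudogene Tdgf1-ps1, so some reads could belong to either.

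Promoter sequence is shown for the ligand and the coreceptor because both changed over the times and FOXH1 with SMADs is known to act on genes of the pathway. RefSeq's GRCm38.p6 table held promoters for 4 of the 9 members (Nodal, Tdgf1, Acvr1b and Acvr2b). The windows are the 250 bases before the annotated start, 5′ to 3′ on the strand of the gene, chr9:110946159-110946408 (minus strand) for Tdgf1 and chr10:61417722-61417971 (plus strand) for Nodal. Capitals mark matches, on either strand, to TGTNNATT for FOXH1 or to GTCTG for SMADs.
Tdgf1: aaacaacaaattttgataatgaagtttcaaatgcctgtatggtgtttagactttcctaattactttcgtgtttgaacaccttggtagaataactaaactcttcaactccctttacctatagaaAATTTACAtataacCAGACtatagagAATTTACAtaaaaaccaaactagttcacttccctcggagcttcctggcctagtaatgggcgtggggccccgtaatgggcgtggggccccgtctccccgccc
Nodal: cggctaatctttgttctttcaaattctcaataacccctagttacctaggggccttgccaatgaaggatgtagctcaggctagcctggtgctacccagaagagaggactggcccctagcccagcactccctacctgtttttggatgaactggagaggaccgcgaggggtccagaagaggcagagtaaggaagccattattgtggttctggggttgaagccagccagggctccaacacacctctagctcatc

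The Tdgf1 window held 2 FOXH1 matches, which begin 127 and 101 bases before the start, and 1 SMAD match between them, at 113 bases. In this window all 3 read on the opposite strand and do not overlap. Of 32851 promoter windows of the same length, 10.9% held a FOXH1 match, 42.2% a SMAD match, and 133 (0.405%) held at least 2 FOXH1 matches and 1 SMAD match. That combination is the one the Tdgf1 window itself holds, so nothing is read from its share. The Nodal window held neither a FOXH1 nor a SMAD match. Searches for CCGGAAGT (ETS factors, 2.88% of windows), TGANTCA (AP-1, 6.75%) and GCGNGGGCG (EGR factors, 4.7%) gave no match in either window. A match is a description of letters and not a measured binding site. Bases G and C made up 42.0% of the Tdgf1 window and 53.2% of the Nodal window, where the median of all windows was 52.4%.

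The type I receptor gene Acvr1b (chromosome 15, 101174067 to 101213684, plus strand) encodes ALK4, the kinase that phosphorylates the SMADs. Clone 4 libraries stood at 19.8 and 12.1 CPM at 0h, 12.4 and 13.7 at 2h, 14.7 and 20.1 at 4h, and 9.04 and 8.05 at rev. Clone 8 gave 20.0 and 19.5 CPM at 0h, 19.5 and 17.2 at 2h, 23.6 and 27.1 at 4h, and 15.1 and 13.7 at rev. The rev libraries were the lowest of each clone. Acvr1b fell from 4h to rev by 0.92 on the log2 scale (SE 0.145, adjusted p = 0.000444), by 0.98 in clone 4 and 0.83 in clone 8. It was also lower at rev than at 0h, by 0.67 (SE 0.147, adjusted p = 0.0068). The rise from 2h to 4h was 0.43 (adjusted p = 0.0466), and that call was lost when any 1 of 11 of the 16 libraries was left out, with adjusted p-values up to 0.132; it was kept only without a 0h clone 4 library, clone 4 replicate 1 at 4h, clone 4 replicate 2 at rev or clone 8 replicate 1 at rev.

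The type II receptor gene Acvr2b (chromosome 9, 119402118 to 119434995, plus strand) encodes a receptor that binds the ligand and activates the type I kinase. In clone 4 it stood at 22.8 and 23.8 CPM at 0h, 21.4 and 26.7 at 2h, 15.6 and 12.4 at 4h, and 23.4 and 24.5 at rev. In clone 8 it stood at 24.4 and 22.7 CPM at 0h, 23.7 and 22.7 at 2h, 21.9 and 19.8 at 4h, and 22.4 and 21.5 at rev. The low values were the clone 4 libraries at 4h, where Lefty1 and Lefty2 were also lowest. Averaged over clones Acvr2b fell by 0.40 from 0h to 4h (adjusted p = 0.0464) and by 0.41 from 2h to 4h (adjusted p = 0.0414). The call at 4h against 0h was lost in 10 of 16 fits that left out 1 library, and at 4h against 2h in 9, with falls of 0.30 in both when clone 4 replicate 2 at 4h was left out. Leaving out a 4h or rev library of clone 8 or clone 4 replicate 2 at rev ended neither call. The change from 0h to 4h was -0.70 ± 0.16 in clone 4 and -0.17 ± 0.13 in clone 8.

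Foxh1 (chromosome 15, 76668225 to 76669948, minus strand), the forkhead factor that brings SMAD complexes to DNA, was highest at 4h in both clones. Foxh1 in clone 4 stood at 14.6 and 17.0 CPM at 0h, 18.7 and 12.6 at 2h, 26.1 and 27.7 at 4h, and 16.5 and 19.5 at rev. Clone 8 gave 13.9 and 14.8 CPM at 0h, 11.3 and 10.1 at 2h, 17.1 and 18.1 at 4h, and 14.8 and 13.2 at rev. No 4h library overlapped any other library of its clone. Foxh1 rose by 0.75 on the log2 scale from 2h to 4h (SE 0.129, adjusted p = 0.00141) and by 0.52 from 0h to 4h (SE 0.131, adjusted p = 0.0129), a call lost without clone 4 replicate 1 at 0h (0.44, adjusted p = 0.0593). It fell by 0.46 from 4h to rev (adjusted p = 0.0303). That last call was lost in 5 of 16 fits that left out 1 library: clone 4 replicate 1 or 2 at 4h (-0.44 and -0.42), clone 4 replicate 1 or 2 at rev (-0.41 and -0.51) and clone 8 replicate 2 at rev (-0.45).

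Smad7 (chromosome 18, 75367529 to 75395935, plus strand), the inhibitory SMAD that targets activated receptors, showed the largest rise of the 9 members at 2h averaged over clones. In clone 4 it stood at 28.0 and 19.9 CPM at 0h, 90.3 and 105 at 2h, 28.8 and 47.0 at 4h, and 48.6 and 48.0 at rev. In clone 8 it stood at 41.6 and 43.4 CPM at 0h, 120 and 101 at 2h, 99.5 and 83.3 at 4h, and 34.2 and 34.7 at rev. Every 2h library lay above every 0h library of either clone. At 4h the clones did not overlap: clone 4 was nearer to its 0h values and clone 8 to its 2h values.

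Smad7 rose by 1.68 on the log2 scale at 2h (SE 0.244, adjusted p = 0.00015) and by 0.94 at 4h against 0h (SE 0.248, adjusted p = 0.0165). It was 1.26 lower at rev than at 2h (log2 change -1.26, SE 0.238, adjusted p = 0.00716), the single call among the members in that comparison. The call at 4h against 0h was lost without clone 4 replicate 2 at 0h (0.81, adjusted p = 0.0508) or clone 8 replicate 1 at 4h (0.70, adjusted p = 0.062). From 2h to 4h it fell by 0.75 (adjusted p = 0.0434), a call lost with DESeq2 (adjusted p = 0.0815) and in 8 of 16 fits that left out 1 library. The change was -0.50 without clone 4 replicate 1 at 4h, and leaving out a rev library, a 4h library of clone 8, clone 8 replicate 2 at 2h or clone 4 replicate 2 at 0h did not end the call. From 4h to rev the change was 0.41 ± 0.16 in clone 4 and -1.41 ± 0.15 in clone 8, a difference of -1.82 ± 0.22, and the average over clones of -0.51 (adjusted p = 0.201) was called without clone 4 replicate 1 at 4h (-0.78, adjusted p = 0.0333).

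Skil (chromosome 3, 31095058 to 31122577, plus strand) encodes SnoN, a corepressor of SMAD complexes that the pathway itself induces. In clone 4 it stood at 48.5 and 40.5 CPM at 0h, 85.3 and 108 at 2h, 60.8 and 83.3 at 4h, and 76.3 and 85.4 at rev. In clone 8 it stood at 58.1 and 56.6 CPM at 0h, 45.2 and 45.4 at 2h, 43.0 and 44.9 at 4h, and 40.6 and 40.2 at rev. In TMM-scaled CPM, all later libraries lay above 0h in clone 4 and below it in clone 8. The change at 2h was 1.12 ± 0.13 in clone 4 and -0.34 ± 0.12 in clone 8, a difference of -1.46 ± 0.18. At 4h the difference was -1.06 ± 0.19, and from 4h to rev it was -0.32 ± 0.19. Averaged over clones Skil passed in none of the 6 comparisons. Its average change was 0.07 from 0h to 4h and 0.13 from 0h to rev, and without clone 4 replicate 2 at 0h these were -0.15 and -0.10; without the filter on low counts it was called at 2h against 0h (adjusted p = 0.0269). Unlike the Lefty genes, Skil in clone 4 did not drop below its 0h level at 4h.

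**Figure D3:**
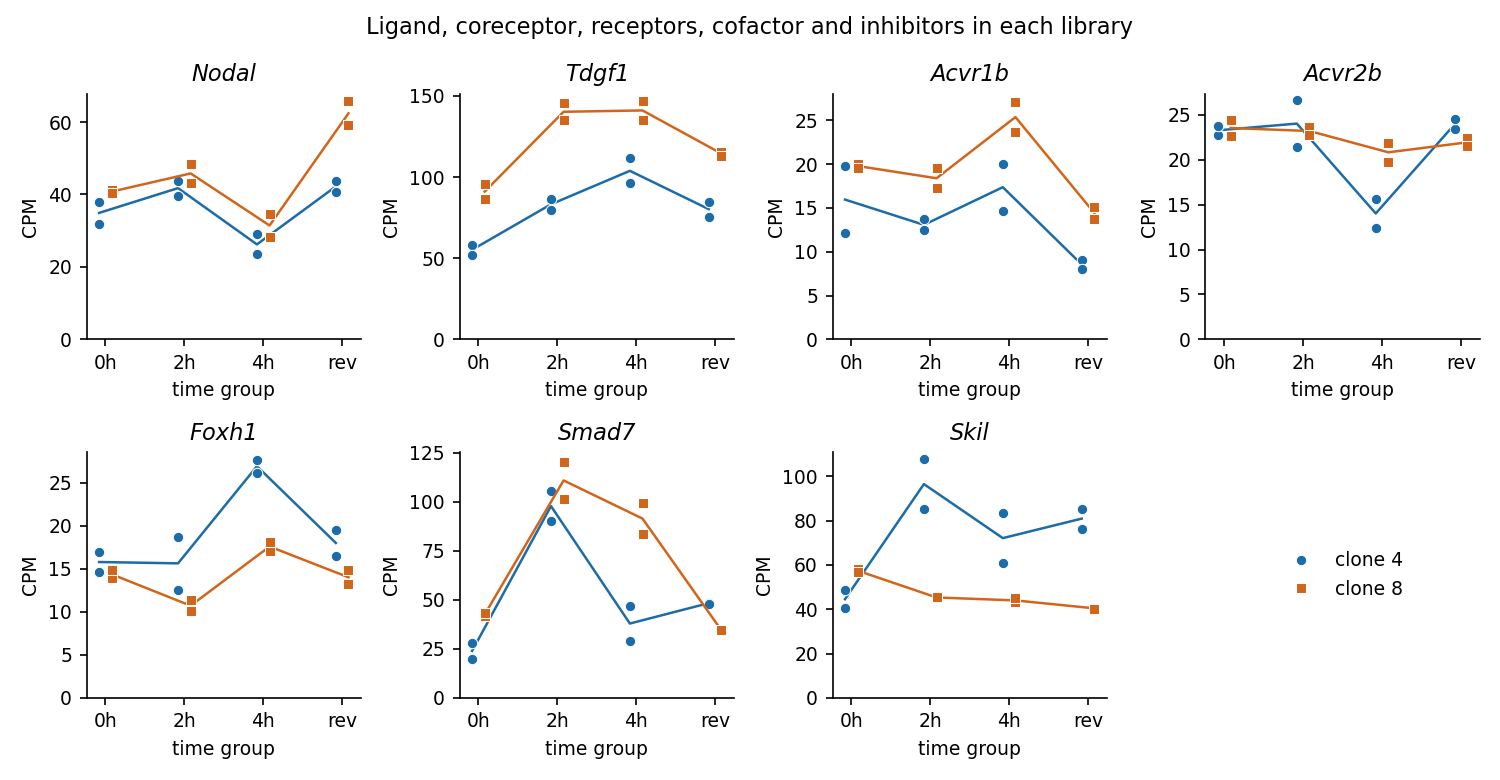
CPM (linear axes that start at 0) of the other 7 members in each library by time group; circles are clone 4, squares clone 8, and lines join the means of the 2 libraries. Tdgf1 rises from 0h in both clones, Skil is above its 0h level in clone 4 and below it in clone 8, and Smad7 at 4h is at 28.8 and 47.0 CPM in clone 4 and at 83.3 and 99.5 CPM in clone 8.

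**Figure D4:**
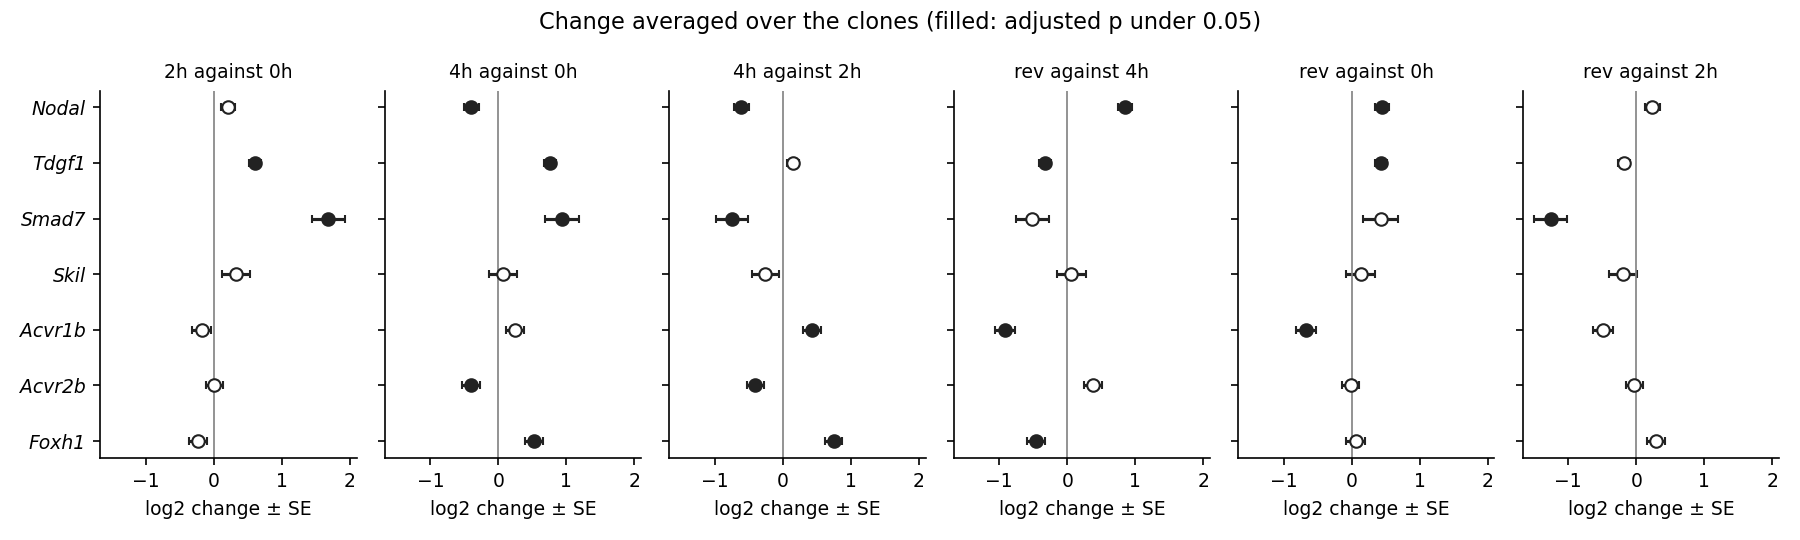
Log2 change averaged over the clones for the 7 members other than Lefty1 and Lefty2 in the 6 comparisons of times, with bars of ± 1 SE; filled points passed an adjusted p of 0.05 (edgeR). Smad7 and Tdgf1 are filled at 2h against 0h, and Smad7 alone at rev against 2h.

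Of the 20 calls of members over the clones, 14 were lost with another scaling. With library totals, which include the 9 abundant features, the median of all genes moved to 0.11 from 0h to 2h, -0.14 from 2h to 4h, and to -0.20, -0.24 and -0.35 for rev set against 4h, 0h and 2h. Under that scaling the calls of Tdgf1 at 2h (adjusted p = 0.0594) and 4h (adjusted p = 0.0548) were among those lost, as were those of Nodal from 4h to rev (adjusted p = 0.149) and from 2h to 4h (adjusted p = 0.0683). The 6 calls that were kept were the 4 of Smad7 and the falls of Acvr1b from 4h to rev and from 0h to rev. All 20 changes had the same sign under both scalings, and the change of Tdgf1 was 0.73 at both times and that of Nodal from 2h to 4h -0.73. The SE of Tdgf1 at 2h was 0.239 with library totals and 0.0878 with TMM.

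The differences between clones also moved with the scaling. With library totals the median difference over all genes was 0.56 at 2h against 0h, 0.35 at 4h against 0h and -0.67 at rev against 4h, where with TMM it was -0.02, 0.03 and -0.02. Those of Lefty1 were -1.71, 3.01 and -6.13 in the same order, those of Lefty2 -2.94, 1.55 and -5.84. The differences between clones of Lefty1, Lefty2, Smad7 and Skil had the same signs under both scalings. Small differences did not all do so: that of Nodal at 2h was -0.08 with TMM and 0.50 with library totals, and that of Tdgf1 was 0.03 and 0.62, both near the median of all genes under each scaling. Changes within each clone are given with TMM alone. Skil in clone 8 held 560 and 394 counts of 9.12 and 7.03 M at 0h, and 595 and 647 of 10.4 and 10.2 M at 2h. As shares of these totals the 2 times overlapped, where with TMM they did not. Lefty1 in clone 8 overlapped likewise between 2h (140 and 152 counts of the same 2h totals) and 4h (159 and 70 of 8.08 and 6.60 M).

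Averaged over all 4 times, clone 8 differed from clone 4 in 8 of the 9 members: 6 were higher in clone 8, against 21.7% of all tested genes, and 2 were lower, against 21.6%. This average also holds the differences between clones in response on which the members were chosen. Its counts and p-values are therefore given as a description. Lefty2 was 2.52-fold higher in clone 8 (log2 difference 1.34, SE 0.108, adjusted p = 3.74e-12) and Tdgf1 was 1.53-fold higher (0.61, SE 0.0534, adjusted p = 2.35e-11). Acvr1b, Smad7 and Nodal were higher by 0.54, 0.47 and 0.31 on the log2 scale. Skil was lower by a log2 difference of -0.60 (adjusted p = 1.89e-09) and Foxh1 by -0.43 (adjusted p = 6.66e-05). Acvr2b did not pass (0.09, SE 0.0696, adjusted p = 0.29).

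For 4 of these members the sign differed between times. Lefty1 was 0.39 higher in clone 8 (adjusted p = 0.0277), from log2 differences of 0.99 at 0h, -1.32 at 2h, 3.69 at 4h and -1.81 at rev. Its call was lost with DESeq2 (adjusted p = 0.0517) and in 6 of 16 fits that left out 1 library, with differences of 0.30 to 0.36: clone 4 replicate 2 at 0h, 2h or rev, replicate 1 of either clone at 4h, and clone 8 replicate 2 at rev. Lefty2 was higher in clone 8 at 0h and 4h (2.88 and 4.21) and lower at 2h and rev (-0.66 and -1.08). Smad7 was higher in clone 8 by 0.85, 0.18 and 1.33 at 0h, 2h and 4h and lower at rev (-0.49 ± 0.16). Skil was higher in clone 8 at 0h (0.38 ± 0.13) and lower at the 3 later times (-1.09, -0.69 and -1.0). Tdgf1 differed between the clones by 0.45 to 0.75 at each of the 4 times, Acvr1b by 0.35 to 0.74. In bulk RNA, fewer cells that express a gene and less RNA per cell cannot be told apart.

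Levels were compared between genes as CPM per kb of exon, over the 4 libraries of a time. Tdgf1 was the highest of the members at each time, with means of 27.9 at 0h, 42.6 at 2h, 46.7 at 4h and 37.1 CPM per kb at rev. At 0h it was followed by Lefty2 (18.1) and Nodal (18.1), then Foxh1 (11.0), Lefty1 (10.5), Smad7 (7.35), Acvr2b (5.96), Skil (5.25) and Acvr1b (4.04). Between neighbours in that order the libraries separated fully only for Nodal over Foxh1. The other neighbours overlapped, Lefty2 most widely, since its 4 libraries ran from 3.72 to 34.7 CPM per kb across the clones.

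The order at the later times differed between the clones. At 2h Smad7 was second in both, with 21.6 CPM per kb in clone 4 and 24.5 in clone 8. Its libraries overlapped those of the next gene, Lefty2 in clone 4 and Nodal in clone 8. At 4h Foxh1 was second in clone 4 (19.7) and Lefty2 in clone 8 (29.4). At rev Lefty2 was second in clone 4 (23.2), overlapping Nodal, and Nodal was second in clone 8 (29.8). Lefty1 was lowest at 4h in clone 4 (0.627 CPM per kb), overlapping Lefty2. In clone 8 at 4h Lefty1 stood at 7.60 and Skil was lowest (4.53). Acvr1b was the lowest member at 2h and rev in both clones. Over the 4 libraries of a time, neighbours that separated fully were Tdgf1 over Smad7 and Acvr2b over Acvr1b at 2h, Tdgf1 over Foxh1 and Nodal over Skil at 4h, and Acvr2b over Acvr1b at rev.

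Of 40 further genes of the pathway, 30 had enough counts to be tested. The ligand genes Gdf1 and Inhba had 0 counts in every library, and Acvr1c, Cfc1, Cer1, Dand5, Fstl3, Mixl1, T and Foxa2 had at most 13 in any library. At 2h against 0h, 5 of the 30 rose and 1 fell, against 9.49% and 7.48% of all tested genes. The type II receptor gene Acvr2a rose by 1.15 on the log2 scale (adjusted p = 1.59e-06), the matricellular gene Ccn2 by 1.09 (adjusted p = 0.00105), the T-box target Eomes by 1.07 (adjusted p = 0.00218), the effector Smad2 by 0.52 (adjusted p = 0.00503) and the receptor Tgfbr1 by 0.44 (adjusted p = 0.00446). Smad3, the other receptor-activated SMAD of the pathway, fell by 0.58 (adjusted p = 0.0289).

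At 4h against 0h, 2 of the 30 rose and 3 fell, against 7.35% and 5.56% of all tested genes. Acvr2a was still raised by 0.38 (adjusted p = 0.0384), Smad3 fell by 0.78 (adjusted p = 0.00831) and Tmeff1, which encodes a transmembrane inhibitor of Nodal signalling, fell by 0.27 (adjusted p = 0.0331). The other calls, Eomes up and the homeobox target Gsc down, were of genes with under 50 counts on average and were named after their values were seen. At 4h against 2h, 0 rose and 7 fell, against 5.78% and 6.36% of all tested genes. The falls were Tgfbr3 by 0.79, Ccn2 by 0.78, Acvr2a by 0.77, Smad2 by 0.47, Tmeff1 by 0.42, Trim33 by 0.37 and Ppm1a by 0.26. The last is outside the naming rule and completes the count.

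At rev against 4h, 2 of the 30 rose and 2 fell, against 4.5% and 5.1% of all tested genes. Pmepa1, a target gene that encodes an inhibitor of SMAD signalling, rose by 1.16 (adjusted p = 0.00305), and the corepressor gene Tgif1 fell by 0.47 (adjusted p = 0.00247). Gsc, up, and the TGF-beta receptor gene Tgfbr2, down, had low counts and were named after their values were seen. At rev against 0h, 6 rose and 0 fell, against 5.51% and 4.94% of all tested genes. Among the rises were Pmepa1 by 1.18, Ccn2 by 0.69, Acvr2a by 0.56, Tgfbr1 by 0.37, and Eomes, which had low counts. At rev against 2h, 0 rose and 1 fell (all tested genes 0.769% and 1.01%), Acvr2a by 0.59 (adjusted p = 0.00477). The medians of the 30 were 0.15 from 0h to 2h, 0.01 from 0h to 4h, -0.27 from 2h to 4h and 0.19 from 4h to rev, beside medians of all genes within 0.01 of 0.

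These 30 genes were tested for a difference between the clones in the change. The calls of the 30 genes, and those of the ERK targets below, were not checked under another scaling. With library totals the median difference between clones over all genes moved to 0.56 at 2h against 0h, 0.35 at 4h against 0h and -0.67 at rev against 4h. At 2h against 0h, 1 difference was higher in clone 8 and 1 lower (all tested genes 2.93% and 5.01%). The activin subunit gene Inhbb changed by -0.76 in clone 4 and 1.41 in clone 8 (difference 2.17, adjusted p = 0.00349), and Furin, a protease that processes the Nodal precursor, by 0.72 and -0.35 (difference -1.07, adjusted p = 0.0015). In clone 4 Inhbb averaged 16.5 counts at 0h and 12.5 at 2h. At 4h against 0h, 2 differences were higher and 0 lower (2.03% and 3.69%). Smad3 changed by -1.44 in clone 4 and -0.35 in clone 8 (difference 1.09, adjusted p = 0.00234), and Pcsk6, another protease of the Nodal precursor, by -0.38 and 0.21 (difference 0.59, adjusted p = 0.0456).

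At rev against 4h, 1 difference was higher and 5 were lower (6.3% and 6.89%). Among the genes with lower differences, Pcsk6 (-1.27, adjusted p = 3.74e-06), Smad3 (-1.15, adjusted p = 0.00126), Pmepa1 (-1.42, adjusted p = 0.00127) and Ski (-0.53, adjusted p = 0.0273) had changes in clone 4 of 1.16, 1.04, 1.98 and 0.63 and in clone 8 of -0.11, -0.10, 0.56 and 0.11, in that order. The activin-binding antagonist gene Fst, with under 50 counts on average and named after its values were seen, had changes of -0.95 in clone 4 and 0.76 in clone 8 (difference 1.71, adjusted p = 0.0136).

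ERK target genes were measured beside these responses. The summed level of 10 of them, among them Egr1, Etv5, Spry4, Dusp6 and Etv4, was 115 CPM in both clone 4 libraries at 0h, 873 to 1041 at 2h, 936 to 1008 at 4h and 177 to 189 at rev. In clone 8 it was 150 to 155 CPM at 0h, 493 to 514 at 2h, 347 at 4h and 155 to 159 at rev. The sum was thus higher at 2h and 4h and lower again at rev in both clones, with the larger range in clone 4. Single genes weighed heavily in it. Etv5 averaged 87.9 CPM in clone 4 and 103 in clone 8 at 0h. Egr1 averaged 515 and 174 CPM at 2h, and 259 and 30.6 at 4h, in the same order of clones. Of the 10, 9 rose at 2h and 9 at 4h against 0h, and 8 fell at rev against 4h. The shares of all tested genes were 9.49%, 7.35% and 5.1% in that order. By edgeR's test of the difference between clones, the clone 8 change was below that of clone 4 for 4 of the 10 at 2h and 8 at 4h, and above it for 6 at rev against 4h. Over all tested genes these shares were 5.01%, 3.69% and 6.3%. The part of this difference between the clones in the responses of the Nodal pathway genes was not tested. In clone 4 the Lefty genes and that sum were both low at 0h and both high at 2h, while at 4h the Lefty genes were low with the sum high, and at rev high with the sum low. In clone 8 the Lefty genes were lower at 2h, where the sum was high, and at rev, where it was low.

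The genes most like Lefty1 and Lefty2 over the libraries were taken by the smaller of the 2 within-clone Pearson correlations of log2 CPM, over 8 libraries a clone and 8922 ranked genes. For Lefty1 they were Ank3 (r = 0.931 in clone 4 and 0.934 in clone 8), Mroh1 (0.943 and 0.925), Prickle2 (0.923 and 0.917), Fgfr2 (0.916 and 0.970) and Lima1 (0.975 and 0.915). For Lefty2 they were Zfc3h1 (0.937 and 0.964), Rab11fip3 (0.926 and 0.949), Tbc1d9 (0.916 and 0.953), Atp10a (0.914 and 0.945) and Dppa3 (0.936 and 0.913). Lefty1 and Lefty2 had r = 0.903 in clone 4 and 0.814 in clone 8 with each other, which ranked Lefty2 at 70 for Lefty1 and Lefty1 at 37 for Lefty2. Nodal correlated with Lefty1 at 0.915 in clone 4 and -0.431 in clone 8. These correlations describe the same libraries that chose the genes, share library depth and composition, and carry no test.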

How the data were processed

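Per the labels' protocols, libraries were made from RNA after ribosomal RNA depletion. Per the submitters' processing notes, bcl2fastq 2.19.1, STAR 2.5.3a and the build mm10 were used; the counting program, annotation and strand setting are not given in the sources used here. The authors deposited raw whole-number counts for 52636 gene IDs in 16 libraries. Symbols and 1-based coordinates came from GENCODE M21 (GRCm38), which matched 52489 IDs and not 147.

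Groups came from the sample labels. Genes were kept by filterByExpr by time group (minimum count 10, minimum total 15), which left 12742, scaled by TMM and fitted with edgeR 4.0.16 (R 4.3.3, quasi-likelihood) with time group and clone as terms; a second model held the 8 groups of time and clone. P-values were adjusted by Benjamini-Hochberg over all tested genes, and a call is an adjusted p under 0.05. CPM are TMM-scaled counts relative to the kept genes, and an SE is the size of a log2 change over the root of its F statistic. DESeq2 1.42.0 was an alternative. The procedure was tested on simulated data. These gave all genes the same spread and held no shift of the abundant features between libraries, so nothing is read from them about the scaling. Duplicate libraries were looked for, and every replicate pair differed beyond sampling noise (4.36 to 67.2 as chi-square over degrees of freedom).

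Named pathway genes are those called whose higher group averaged 50 counts or more, at most 6 per comparison by size of change. The 5 genes most like Lefty1 and Lefty2 were taken among genes with a mean log2 CPM over 2. IDs without a symbol and predicted genes (Gm and Rik names) were left out of that ranking. One gene of the pathway list is counted but not reported here by name. The members and all lists were chosen with earlier results of these data known.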

Additional observations from a re-analysis of the deposited data

Results flagged for a closer look

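Members whose 2 clones moved in opposite directions without overlap of the libraries, in TMM-scaled values alone, are listed. The value given is the clone 8 change minus the clone 4 change on the log2 scale. These differences were not tested, since the members were chosen on them. At 2h against 0h they were -2.31 for Lefty1, -3.54 for Lefty2 and -1.46 for Skil. At 4h against 0h the difference was -1.06 for Skil, and at 4h against 2h it was 5.0 for Lefty1 and 4.88 for Lefty2. Lefty1 in clone 8 had almost no gap there, with replicate 2 of 2h and of 4h both at 10.7 CPM. At rev against 4h the differences were -5.50 for Lefty1, -5.29 for Lefty2 and -1.82 for Smad7. At rev against 0h they were -2.80 for Lefty1, -3.96 for Lefty2, -1.33 for Smad7 and -1.38 for Skil.

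Other pathway genes passed edgeR's test of the same difference. Of 30 tested, 1 was higher and 1 lower at 2h against 0h, against 2.93% and 5.01% of all tested genes. These were Inhbb at 2.17, with few counts in clone 4 (means of 16.5 and 12.5), and Furin at -1.07. At 4h against 0h, 2 were higher and 0 lower (2.03% and 3.69%), Pcsk6 at 0.59 and Smad3 at 1.09. At rev against 4h, 1 was higher and 5 lower (6.3% and 6.89%). Among them were Pcsk6 at -1.27, Smad3 at -1.15, Ski at -0.53, Pmepa1 at -1.42 and Fst at 1.71, which averaged under 50 counts. Counts near the shares of all tested genes are given as a description.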

How the results depend on the processing

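The members called numbered 2, 5 and 5 of 9 for 2h and 4h against 0h and for 4h against 2h, and 4, 3 and 1 for rev set against 4h, 0h and 2h, in this order below. Scaled by library totals, the first 5 numbers were 1, 2, 2, 2 and 1. Each 2 among them includes a gained call of Lefty1, from which nothing is read, and 6 of the 20 calls of the main fit were kept. Foxh1 at rev against 0h (-0.18) and rev against 2h (-0.041) and Nodal at rev against 2h (-0.11) changed sign with library totals. These 3 were not called under either scaling, and the medians of all genes moved there by -0.24 and -0.35. Without the clone covariate the 6 numbers were 1, 0, 0, 1, 0 and 0. Without a filter on low counts they were 7 at rev against 4h and 2 at rev against 2h. The 7 include gained calls of Lefty1 and Lefty2, from which nothing is read. At an adjusted p under 0.01 the numbers were 1 at 4h against 0h, 2 at 4h against 2h and 2 at rev against 4h. Leaving out 1 library at a time gave 2 to 2 calls at 2h against 0h, 2 to 5 at 4h against 0h, 2 to 5 at 4h against 2h, 2 to 6 at rev against 4h, 2 to 3 at rev against 0h, 1 to 2 at rev against 2h and 7 to 8 for clone 8 against clone 4. Skil, not called, ran from -0.15 (without clone 4 replicate 2 at 0h) to 0.26 for 4h against 0h, and for rev against 0h from -0.10 to 0.31. Size factors of the DESeq2 kind, DESeq2 itself, leaving out the 9 abundant features and summing Lefty1 and Lefty2 kept each number within 1.5 times. Same-numbered libraries did not pair: of 12 correlations of their deviations, -0.133 to 0.119, 1 was over 0.1. The fit with the replicate block gave 2 calls at 4h against 2h in place of 5 and kept the other numbers within 1.5 times. Lefty1 at 4h in clone 4 rests on 7 and 5 counts, which limits the size of its change there; the cause of the other shifts was not tested.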
